A study of Mus musculus with 6 samples.

Results

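The miR-199 and miR-214 arms are 6 mature mouse miRNA names, mmu-miR-199a-3p, mmu-miR-199a-5p, mmu-miR-199b-3p, mmu-miR-199b-5p, mmu-miR-214-3p and mmu-miR-214-5p, taken from the deposited table by name. All 6 were in the table, among 2009 names, and all 6 passed the filter on low levels, among 409 names that averaged 1 read or more per 1000000 and were above 0 in 3 or more of the 6 libraries. The table holds 6 whole-heart libraries from male mice, 3 from a sham group and 3 from an ischemia-reperfusion (I/R) group. Each isolated heart was perfused on a Langendorff system, in which fluid enters through the aorta. Sham hearts went on beating, whereas I/R hearts were held still with cardioplegia for 30 min and reperfused for 1 h, so the sham hearts share the perfusion but not the arrest. Strain, age and genotype are not given in the labels used here, and the libraries are numbered 1 to 3 in each group as biological replicates.

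A miRNA is cut from a hairpin in a longer transcript, and either strand of the hairpin, the 5p arm or the 3p arm, can be loaded into Argonaute and pair with target mRNAs through its seed, bases 2 to 8. The miR-199 and miR-214 hairpins lie on the strand opposite to dynamin genes. One of the miR-199a hairpins and the miR-214 hairpin are carried by a long noncoding RNA, Dnm3os, that is known from mesenchymal cells and from fibrotic tissue. In the heart, miR-199a-5p has been studied as a repressor of Hif1a and Sirt1 during oxygen shortage, miR-199a-3p as a miRNA that can push cardiomyocytes to divide, and miR-214-3p as a repressor of the sodium-calcium exchanger Ncx1. These libraries are of whole hearts, so which cells held the members was not measured.

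The sequences below show which names can be told apart by their reads. RefSeq's table (GRCm38.p6) held a mature sequence for 5 of the 6 names. Capitals mark the seed.
miR-199a-3p and miR-199b-3p: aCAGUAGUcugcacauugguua
miR-199a-5p: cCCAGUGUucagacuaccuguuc
miR-214-3p: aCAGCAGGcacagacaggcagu
miR-214-5p: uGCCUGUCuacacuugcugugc
The 3p names of miR-199a and miR-199b have 1 sequence in common, which is found at 3 loci, so no read of it can be assigned to a locus. The 3p arms of miR-199 and miR-214 begin alike. Counted from the 5′ end, with the miR-199-3p base first, the seed differs at 2 of 7 positions, U5C and U8G, and 14 of 22 positions differ in all. The seeds of miR-199a-5p and miR-214-5p differ from these and from each other. The only other name in RefSeq's table with a member's seed was miR-761, which shares CAGCAGG with miR-214-3p and had 0 reads in each library, which allows up to 3 reads.

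The hairpins show why miR-199-3p comes from several genes and miR-214 from 1. Here capitals mark the mature sequences that the table lists for each hairpin.
Mir199a-1: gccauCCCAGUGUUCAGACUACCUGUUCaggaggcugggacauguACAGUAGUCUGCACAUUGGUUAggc
Mir199a-2: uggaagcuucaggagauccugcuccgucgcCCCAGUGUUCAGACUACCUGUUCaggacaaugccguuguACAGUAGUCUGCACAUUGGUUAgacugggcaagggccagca
Mir199b: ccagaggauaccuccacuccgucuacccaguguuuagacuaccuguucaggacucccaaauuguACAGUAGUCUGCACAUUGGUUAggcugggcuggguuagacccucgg
Mir214: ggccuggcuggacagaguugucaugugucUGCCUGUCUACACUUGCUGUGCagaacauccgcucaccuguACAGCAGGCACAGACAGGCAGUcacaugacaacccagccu
Mir199a-1 lies at chr9:21496495-21496564 on the minus strand, in an intron of Dnm2 and opposite to it. Mir199a-2 lies at chr1:162217814-162217923 on the plus strand, and Mir214 follows at chr1:162223368-162223477 on the same strand, with 5444 bases between them. Both are in exons of Dnm3os and opposite to an intron of Dnm3. Mir199b lies at chr2:32318460-32318569 on the plus strand, opposite to an intron of Dnm1. Dnm1, Dnm2 and Dnm3 encode dynamins, the GTPases that pinch off membrane vesicles. No other hairpin of the 1005 in RefSeq's table overlapped these 4 on either strand.

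Levels are given as reads per 1000000 reads on named miRNAs (RPM). The 5 members with a listed mature sequence are nearly equal in length, at 22 or 23 nt, and no length was listed for miR-199b-5p. The libraries held 7874103 to 9197869 such reads. In these libraries 3 reads are worth 0.326 to 0.381 RPM, far below the level of each member. Heart muscle miRNAs from a marker list of 6 (among them miR-1a-3p, miR-208a-3p and miR-499-5p) together held 385830 to 390210 RPM in sham libraries and 358162 to 383563 RPM in I/R libraries, and none of the 6 was at 0 in all libraries. Erythroid markers, 3 names, held 1.65 to 6.96 RPM and leukocyte markers, 5 names, 109 to 144 RPM over the 6 libraries. Most of the muscle sum was miR-1a-3p, with 372677 RPM on average. The sum did not overlap between the groups. Singly, 2 of the 6 muscle names were lower in every I/R library, as were 3.91% of the 409 names. In log2 fold change, 5 of the 6 were negative and 1, miR-499-5p, was positive at 0.018. The part of the muscle sum in the members' differences below was not tested.

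The shared 3p sequence of miR-199 held most of the members' reads. Its 2 names together stood at 1786, 2381 and 2354 RPM in sham replicates 1 to 3 and at 2360, 2630 and 2778 RPM in I/R replicates 1 to 3, or 0.217% and 0.259% of the reads on average. Sham replicate 1 was the lowest library and I/R replicate 3 the highest, and the groups overlapped, since sham replicate 2 lay above I/R replicate 1. By name, mmu-miR-199a-3p held 1183, 1592 and 1563 RPM in sham libraries and 1587, 1744 and 1863 RPM in I/R libraries. mmu-miR-199b-3p held 603, 789 and 791 RPM in sham libraries and 773, 886 and 915 RPM in I/R libraries. The name miR-199a-3p took 66.7% of the 119284 reads of the shared sequence (95% Wilson interval 66.4% to 67.0%), and 66.3% to 67.3% in single libraries. The sequence is the same, so this share reflects how reads were divided between the names, not which locus made them. It did not differ between libraries beyond counting error (chi-square 7.67, 5 degrees of freedom, p = 0.175), which tells nothing about the loci. By their sequence the 2 names are 1 measurement, and their sum is used below.

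The 5p arms, whose names differ, were scarcer. mmu-miR-199a-5p held 141, 201 and 175 RPM in sham libraries and 177, 208 and 207 RPM in I/R libraries. mmu-miR-199b-5p held 20.1, 28.3 and 26.4 RPM in sham libraries and 27.1, 28.5 and 29.2 RPM in I/R libraries, from 185 to 250 reads per library. Both names were lowest in sham replicate 1, and in both the other 5 libraries of the 2 groups overlapped. Of the reads on both 5p names, miR-199b-5p took 12.6 ± 0.39% in sham and 12.6 ± 0.64% in I/R libraries (SD, n = 3 each), and 12.1% to 13.3% in single libraries. The log2 ratio of miR-199b-5p to miR-199a-5p was -2.74 ± 0.05 in sham and -2.75 ± 0.08 in I/R libraries (SD, n = 3 each), and this difference of -0.01 was within the spread (two-sided exact permutation p = 0.8, adjusted p = 0.8 over 3 ratios, smallest possible p 0.1).

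The arms of miR-214 were nearly equal in level. mmu-miR-214-5p held 30.7, 44.2 and 46.7 RPM in sham libraries and 42.2, 44.0 and 48.9 RPM in I/R libraries, and again sham replicate 1 was the lowest. mmu-miR-214-3p, the arm most often studied, held 32.8, 28.3 and 38.3 RPM in sham libraries and 37.1, 40.1 and 59.6 RPM in I/R libraries. Its lowest library was sham replicate 2 and its highest I/R replicate 3, with sham replicate 3 just above I/R replicate 1. These values rest on 250 to 469 reads, and the exact Poisson intervals, which cover counting error only, were 24.9 to 32.0 RPM for sham replicate 2 and 54.3 to 65.2 RPM for I/R replicate 3. The gap between those 2 libraries therefore exceeds counting error.

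**Figure D1:**
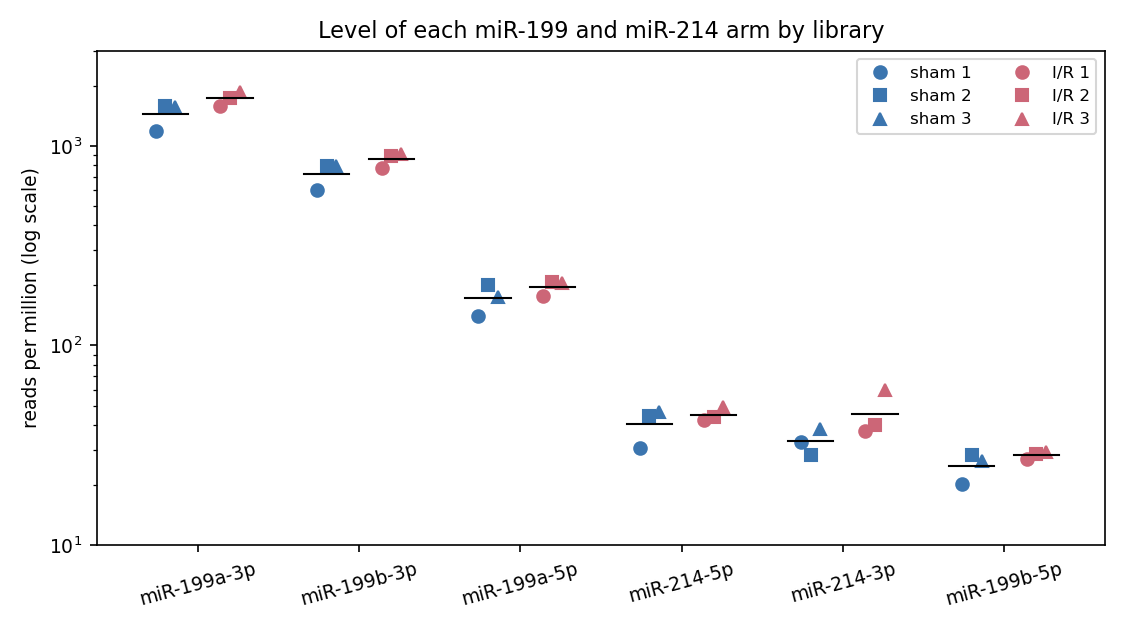
Level of each member in each library, in RPM on a log axis, with sham libraries in blue, I/R libraries in red, the marker shape giving the replicate number and short black lines the group means. The 3p names of miR-199 stand highest, at 603 to 1863 RPM, and miR-214-5p, miR-214-3p and miR-199b-5p stand together between 20.1 and 59.6 RPM.

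Ordered by mean level over the 6 libraries, the miR-199-3p sum (2381 RPM) came first, followed by miR-199a-5p (185 RPM), miR-214-5p (42.8 RPM), miR-214-3p (39.4 RPM) and miR-199b-5p (26.6 RPM). The sum lay 11.9 to 13.4 times above miR-199a-5p in each library, and miR-199a-5p lay 3.76 to 4.72 times above miR-214-5p, with no overlap of their ranges. The lower neighbours did not separate. miR-214-5p was the higher of the miR-214 arms in 4 of 6 libraries, at 0.821 to 1.56 times miR-214-3p. miR-214-3p was above miR-199b-5p in 5 of 6 libraries, and in sham replicate 2 both names had 250 reads. Among the 409 names above the filter, miR-199a-3p ranked 35 by mean level, miR-199b-3p 54, miR-199a-5p 87, miR-214-5p 150, miR-214-3p 154 and miR-199b-5p 171.

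miR-199a-2 and miR-214 are carried by 1 transcript, and the data show how unlike their mature levels were. The log2 ratio of miR-214-3p to miR-199a-5p was -2.34 ± 0.39 in sham and -2.11 ± 0.30 in I/R libraries (SD, n = 3 each), a difference of 0.23 (two-sided exact permutation p = 0.6, adjusted p = 0.8 over 3 ratios). Against the miR-199-3p sum the ratio was -5.99 ± 0.32 and -5.82 ± 0.26 (SD, n = 3 each), a difference of 0.17 (exact permutation p = 0.6, adjusted p = 0.8). Neither difference was larger than the spread between libraries. The difference of 0.23 was 0.0041 without sham replicate 2, 0.058 without I/R replicate 3 and 0.36 without sham replicate 1, and that of 0.17 was -0.010 without sham replicate 2. Both miR-199 sequences can also come from other loci, so these ratios are not those of the Dnm3os transcript alone.

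Across the 6 libraries the miR-199 arms and miR-214-5p had like profiles, and miR-214-3p stood apart from them. Likeness was measured as the root mean square difference of log2(RPM + 1) over the 6 libraries after each name was centred on its own mean, with the miR-199-3p sum as 1 entry. The miR-199-3p sum differed by 0.06 from miR-199b-5p and from miR-199a-5p and by 0.08 from miR-214-5p. Of the 407 other entries, these were the nearest, the fourth and the seventh nearest to it. From miR-214-3p the sum differed by 0.25, and 221 entries lay nearer. The distance between the 2 arms of the same miR-214 hairpin was 0.29, and for miR-214-5p 249 entries lay nearer than miR-214-3p. All values come from the same 6 libraries with their depth and scaling in common, so this is a description of these libraries.

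In the miR-199 arms and miR-214-5p, sham replicate 1 lay farthest from the mean. miR-214-3p lay farthest from those profiles in sham replicate 2, followed by I/R replicate 3. Relative to their own means, the miR-199-3p sum, miR-199a-5p, miR-199b-5p and miR-214-5p stood at -0.40, -0.37, -0.38 and -0.45 on the log2 scale in sham replicate 1. In I/R replicate 3 they stood at 0.24, 0.17, 0.14 and 0.20. miR-214-3p was at -0.22 in sham replicate 1, -0.43 in sham replicate 2 and 0.62 in I/R replicate 3. By name, 5 of the 6 members were lowest in sham replicate 1, as were 27.9% of the 409 names, and 5 were highest in I/R replicate 3, as were 38.6%. Both held for 4 members and for 13.0% of the names. These counts take miR-199a-3p and miR-199b-3p as separate members, although they are 1 measurement.

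**Figure D2:**
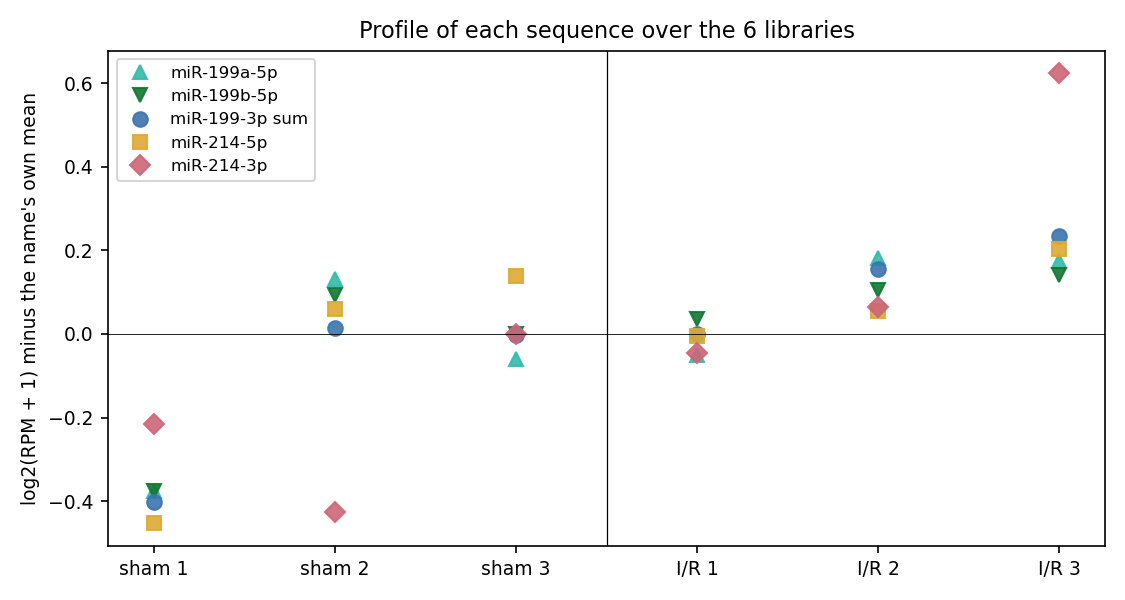
Level of each sequence in each library as log2(RPM + 1) minus the mean of that sequence over the 6 libraries, with the miR-199a-3p and miR-199b-3p reads summed. In sham replicate 1 the miR-199 arms and miR-214-5p lie between -0.45 and -0.37, whereas miR-214-3p has its lowest point, -0.43, in sham replicate 2.

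Other abundant names with like profiles were found among those with a mean of at least 100 RPM. Nearest to the miR-199-3p sum were miR-127-3p at 0.06, miR-199a-5p itself and miR-21a-5p at 0.07, of 112 candidates with a median distance of 0.21. miR-127-3p belongs to the imprinted Dlk1-Dio3 cluster, and miR-21a-5p is a miRNA linked to fibrosis. Nearest to miR-199a-5p were the sum, miR-379-5p at 0.08 and miR-127-3p at 0.10, with a median of 0.21 over 112 candidates. miR-379-5p is another Dlk1-Dio3 miRNA. miR-214-3p had other neighbours and none as close, with miR-99b-5p at 0.15, miR-671-3p at 0.18 and miR-125a-5p at 0.18 and a median of 0.29 over 113 candidates. miR-99b and miR-125a are made from 1 cluster. miR-99b-5p held 3516, 3468 and 3518 RPM in sham libraries and 3859, 3654 and 5539 RPM in I/R libraries, so it too was highest in I/R replicate 3.

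The comparison the study was built for asks whether miRNA levels differ between I/R and sham hearts. All 6 members had a positive fold change, and 0 of the 6 passed the test. It was run with limma on log2(RPM + 1) over all 409 names, adjusted by Benjamini-Hochberg and called at 0.05. Over all names 0 passed (0%), 30 had an unadjusted p under 0.05 (7.33%), and none of these was a member in this fit without pairing. edgeR on the reads called 0 names and DESeq2 called 2, neither of them a member. Positive fold changes were the rule in this table, with 70.2% of the 409 names above 0 and a median log2 fold change of 0.10. The members lay above that median, at 0.17 to 0.43. With median-ratio scaling 209 of the 409 names were positive and with quantile normalization 194. The 6 members were positive under both, though with quantile normalization miR-199b-3p, miR-214-5p and miR-199a-5p were near 0 (0.026, 0.035 and 0.055). The members are not independent of each other, and their common sign was not tested. No member's groups were separate, against 11.2% of names in which each I/R library lay above each sham library and 3.91% in which each lay below.

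The size of the difference was moderate and its interval wide. The miR-199-3p sum went from 2174 ± 336 RPM in sham to 2589 ± 212 RPM in I/R libraries (SD, n = 3 each), with a log2 fold change of 0.26 (SE 0.13, 95% interval -0.02 to 0.55, limma adjusted p = 0.596 over 408 entries). Taken singly, miR-199a-3p was at 0.27 and miR-199b-3p at 0.25 on the log2 scale, with limma adjusted p of 0.598 and 0.628. miR-214-3p had the highest fold change of the members, from 33.1 ± 5.0 to 45.6 ± 12.2 RPM (SD, n = 3 each; log2 fold change 0.43, SE 0.20, interval -0.02 to 0.88, limma adjusted p = 0.598), and 7.09% of the 409 names had a higher one. miR-199a-5p went from 172 ± 30.0 to 197 ± 17.7 RPM, at 0.20 on the log2 scale (interval -0.14 to 0.54, limma adjusted p = 0.678). For miR-199b-5p the levels were 24.9 ± 4.3 and 28.3 ± 1.1 RPM, with a log2 fold change of 0.19 (interval -0.17 to 0.54, limma adjusted p = 0.694). miR-214-5p was at 40.5 ± 8.6 and 45.0 ± 3.5 RPM, with 0.17 (interval -0.23 to 0.56, limma adjusted p = 0.791). The intervals include 0 in each case, and each leaves room for a rise of more than 0.5 on the log2 scale. In bulk tissue, fewer cells of a type and less of a miRNA per cell cannot be told apart.

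A single library carried much of each difference. Without sham replicate 1 the log2 fold change of the miR-199-3p sum was 0.13, that of miR-199a-5p 0.07, that of miR-199b-5p 0.05 and that of miR-214-5p -0.01. For miR-214-3p it was I/R replicate 3, without which 0.43 became 0.22. Together the 6 members held 2445 ± 377 RPM in sham libraries and 2905 ± 243 RPM in I/R libraries (SD, n = 3 each), and the difference of 461 RPM was 243 RPM without sham replicate 1. Other scalings of the libraries, which bring the median over all names from 0.10 to between -0.01 and 0.04, left the 6 names positive but lower. With quantile normalization miR-199b-3p was at 0.026, miR-214-5p at 0.035 and miR-199a-5p at 0.055. Under that setting miR-199b-5p was at 0.11, miR-199a-3p at 0.19 and miR-214-3p at 0.35. The sum was then at 0.30, above either of its 3p names. With median-ratio scaling the miR-199-3p sum was at 0.16, miR-214-3p at 0.33 and miR-214-5p at 0.07.

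**Figure D3:**
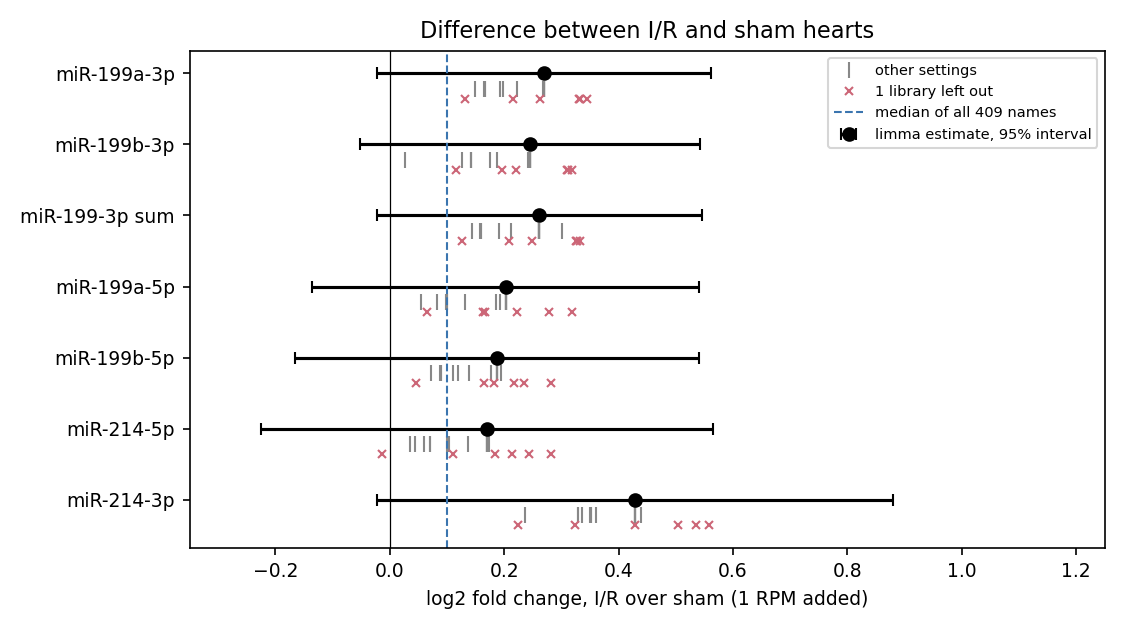
Log2 fold change of I/R over sham for each member and the miR-199-3p sum. Black points and bars are limma estimates with 95% intervals, grey ticks the same value under other settings, red crosses the value with 1 library left out, and the dashed line the median of the 409 names at 0.10. Each interval includes 0, and for miR-214-5p a cross falls at -0.01.

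The same replicate number appears in both groups, but no label pairs the hearts. Libraries with the same number deviated together to a small degree, a check that cannot establish a pairing (it is given with the processing). The pairs are inferred from the same data that they are used on below. In the 3 pairs of same-numbered libraries the miR-199-3p sum was higher in the I/R heart by 0.40, 0.14 and 0.24 on the log2 scale, and miR-214-3p by 0.17, 0.49 and 0.62. With the 3p names of miR-199 counted separately, the I/R heart was higher in each pair for 5 members and for 26.7% of the 409 names. miR-214-5p was the exception, at 0.45, -0.01 and 0.07. With the replicate number as a block limma's adjusted p was 0.225 for the miR-199-3p sum and 0.223 for miR-214-3p, and no member passed. Unadjusted, 3 of the 6 members were under 0.05 in that fit, as were 54 of the 409 names (13.2%). They were miR-199a-3p and miR-199b-3p, which are 1 sequence, and miR-214-3p. With the block and median-ratio scaling together, miR-214-3p was the only member under 0.05, among 41 of the 409 names.

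The balance of the arms did not change beyond the spread between libraries. In miR-199a the 3p arm dominated, with a log2 ratio of 5p to 3p of -3.06, -2.98 and -3.15 in sham and -3.16, -3.06 and -3.17 in I/R libraries (difference -0.07, SE 0.11, interval -0.33 to 0.19, limma adjusted p = 0.967 over 94 precursors). For miR-199b the ratio was -4.81 ± 0.05 and -4.87 ± 0.08 (SD, n = 3 each), with a difference of -0.06 (interval -0.30 to 0.19, limma adjusted p = 0.967). The 3p values of both names are parts of the shared reads, so neither ratio is that of a single locus. Taken over all miR-199 reads, whatever the locus, the 5p arms made up 8.31 ± 0.44% in sham and 8.0 ± 0.21% in I/R libraries (SD, n = 3 each), and the groups overlapped.

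miR-214 was among the most evenly balanced hairpins in the table. Its mean log2 ratio over the 6 libraries was 0.14, the third closest to 0 of 94 precursors with both arms above the filter, and 28.7% of the 94 lay within a 2-fold ratio. Between libraries it varied more than the miR-199 ratios did. The log2 ratio was -0.10, 0.63 and 0.28 in sham and 0.18, 0.13 and -0.28 in I/R libraries, and the groups overlapped. The 5p arm took 61.0% of the miR-214 reads in sham replicate 2 (95% Wilson interval 57.2% to 64.7%) and 45.1% in I/R replicate 3 (41.8% to 48.4%), so these 2 libraries differ by more than counting error. Between the groups the difference was -0.26 (SE 0.23, interval -0.80 to 0.28, limma adjusted p = 0.837). It was -0.44 without sham replicate 1, -0.081 without sham replicate 2 and -0.11 without I/R replicate 3. Of the 94 precursors 0 passed (0%) in limma, and 6 had an unadjusted p under 0.05.

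**Figure D4:**
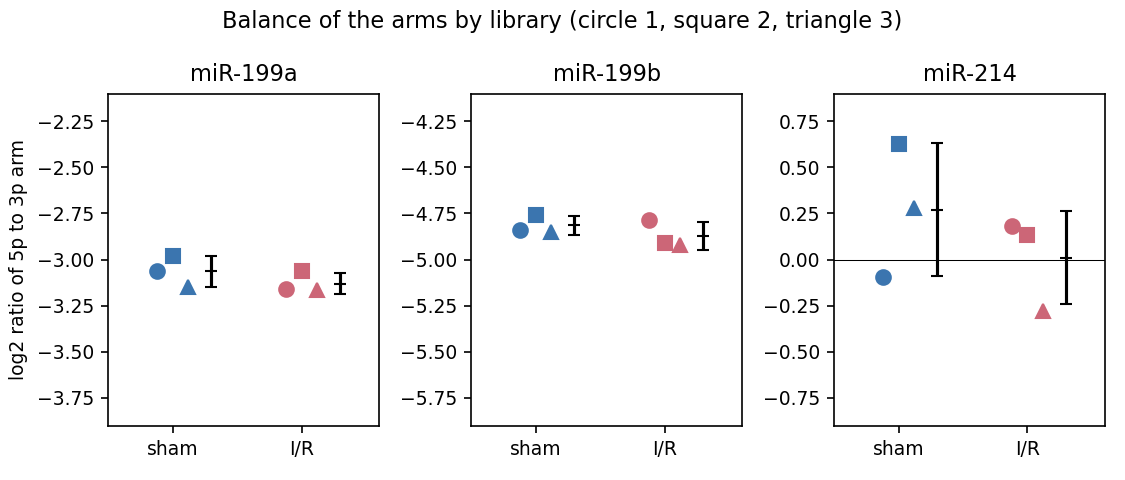
Balance of the arms, as log2 of 5p over 3p, in each library for the 3 precursor names, on y axes of equal span but different position, with the mean and SD of each group (n = 3) at the right of its points. Across libraries the miR-199a ratio runs from -3.17 to -2.98 and that of miR-199b from -4.92 to -4.76, whereas that of miR-214 runs from -0.28 to 0.63.

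Other miRNAs linked to fibroblasts or to fibrosis did not share a direction. Of 18 such names, listed with earlier results of these data known and holding no member, 17 passed the filter, 7 with positive and 10 with negative fold changes, and 0 passed the test in limma. Their median log2 fold change was -0.04, beside 0.10 over all names. In 3 of them each I/R library lay above each sham library and in 1 below (11.2% and 3.91% of all names). The unadjusted limma p was under 0.05 for 1 of them, and for 7.33% of all names. miR-133a-3p and miR-155-5p also stand on the muscle and leukocyte marker lists. The most abundant were miR-21a-5p, with 21588 ± 2271 RPM in sham libraries and 25370 ± 3374 RPM in I/R libraries, and miR-22-3p, with 12926 ± 517 and 12069 ± 285 RPM (SD, n = 3 each). Next came miR-26a-5p, with 10543 ± 700 and 10387 ± 104 RPM, and miR-24-3p, with 5058 ± 412 and 5517 ± 391 RPM. Their log2 fold changes were 0.23, -0.10, -0.02 and 0.13, with limma adjusted p of 0.598, 0.661, 0.935 and 0.661. Smooth muscle markers, 2 names, held 35566 to 46739 RPM in sham libraries and 41127 to 49773 RPM in I/R libraries, and endothelial markers, 2 names, 24893 to 27478 and 25829 to 31830 RPM. Both ranges overlapped between the groups.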

How the data were processed

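The authors deposited 1 table with a signal for each mature miRNA in each library, named as FPKM. The tools fastp 0.23.0 and bcl2fastq 2.19.1.403 and the build mm10 are named, per the submitters' processing notes. Aligner, miRNA annotation, strand setting and treatment of reads with several matches: not given in the sources used here. The labels' protocols describe poly(A) mRNA kits, although the titles say miRNA-seq. Each deposited signal was a whole multiple of the column's smallest value above 0 (100% of values per library, tolerance 0.01 reads), and the 6 column sums were equal, so reads were recovered and RPM computed. The design had assumed FPKM values; the log-scale test fits both units.

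Kept were names that averaged 1 RPM or more and were above 0 in 3 or more of the 6 libraries. limma 3.58.1 (R 4.3.3, mean-variance trend) tested log2(RPM + 1), which understates changes of low names, two-sided. Arm balance was tested likewise on the log2 ratio of 5p to 3p. edgeR 4.0.16 and DESeq2 1.42.0 on recovered reads were alternatives. The main limma fit and a limma fit of ratios, but none of the alternatives, were tested on simulated data. The planted changes were larger than the members' differences, so this tells nothing about differences of the members' size. Members, lists and alternatives were chosen with earlier results of these data known. Named beside the members were names with a shared seed, overlapping hairpins, the 3 nearest profiles, and the 4 most abundant of the fibroblast list.

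Same-numbered libraries deviated from their group means together (correlations 0.14, 0.28 and 0.16, against -0.19 to 0.069 for unlike numbers). The numbers were taken to pair them on this basis, from the data alone and with no label for it. Libraries of 1 group differed by more than sampling noise (chi-square per degree of freedom 29.5 to 114).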

Additional observations from a re-analysis of the deposited data

How the results depend on the processing

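The members' tests kept their side of the threshold under all 20 alternatives run for each, and 5 of the 6 members and the miR-199-3p sum kept their direction. miR-214-5p turned to -0.014 without sham replicate 1 and ranged from -0.014 to 0.28 with 1 library left out. With 1 library left out, the arm balance of miR-214 ranged from -0.44 to -0.081, the ratio of miR-214-3p to miR-199a-5p from 0.0041 to 0.36, the ratio of miR-199b-5p to miR-199a-5p ranged from -0.062 to 0.019 and that of miR-214-3p to the miR-199-3p sum from -0.010 to 0.30. Over all names the count of calls moved from 0 to 1 without a filter, 2 in DESeq2, 4 with the replicate block (which changed no member's call) and 4 with the block and median-ratio scaling, an alternative chosen after seeing the data. It was 0 to 1 with 1 library left out, where the call came without sham replicate 2. edgeR called 0, with 26 names at an unadjusted p under 0.05. No called name was a member, and the cause of the other calls was not tested.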
